A study of Mus musculus with 209 samples.

Results

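The replication-dependent histone genes were the 69 gene symbols that begin with Hist1h, Hist2h, Hist3h or Hist4h, out of 24450 gene rows in the count table. They comprised 6 genes of the linker type H1 and the core types H2A (19 genes), H2B (19), H3 (12) and H4 (13). By cluster, 55 carried a Hist1 symbol, 10 a Hist2 symbol, 3 a Hist3 symbol and 1 a Hist4 symbol. Of these, 5 had no count in any of the 54 libraries and 7 had none in the 50 oocyte and 2-cell libraries.

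Core histones form the nucleosome around which DNA is wrapped, and linker histones bind the DNA between nucleosomes. Most of these genes are transcribed in S phase, and their mRNAs end in a stem-loop cut with the help of SLBP and the U7 small nuclear ribonucleoprotein instead of a poly(A) tail. Replacement histone variants, such as the genes H3f3a, H3f3b and H2afz, are made outside S phase from polyadenylated mRNA. The oocyte stores histone mRNA and protein for the first divisions of the embryo, which begin before the embryo's own genome is widely active.

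The study followed DNA methylation and hydroxymethylation in mouse embryos and germ cells, and the 54 RNA libraries used here are a small share of its 209 samples. MII oocytes, arrested at the second meiotic metaphase, were 19 single cells labelled N14 maternal KO (KO oocytes) and 14 labelled WT. The 2-cell libraries were 9 single cells labelled N14 maternal KO and 8 labelled WT. The epiblast libraries, both of genotype WT from C57BL/6 parents, were 2 labelled IVC and 2 labelled E6.5 ND, and they are called IVC and E6.5 here. Females were superovulated C57BL/6 mice of 6 to 8 weeks, with oocytes collected at 14 to 15 hours and 2-cell embryos at 42 to 43 hours after hCG. The males named are C57BL/6 or PWK, without saying which sired these embryos, and the driver of the knockout and the number of mothers are not given in the sources used here. N14 is read here as Nlrp14, a gene of the oocyte NLRP family. Nlrp14 had 0.643 to 73.2 CPM (a gene's counts scaled to a common library total) in KO oocytes and 225 to 3307 CPM in WT oocytes. Its level was 29.4 to 86.4 CPM in KO 2-cell and 106 to 477 CPM in WT 2-cell libraries, so the groups did not overlap at either stage. The RNA molecule is labelled polyA.

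Library totals ran from 2704050 to 15007301 counts in oocytes and 2-cell cells, from 10241401 to 10377163 in IVC and from 11826853 to 24047088 in E6.5. The oocytes fell into technical sets, defined after the data were seen and not by the study. Spike-in libraries (7 KO, 10 WT) had over 0.01% of counts on ERCC spike-in RNA, low-rRNA libraries (10 KO, 3 WT) had at most that and under 1% on Rn45s, the ribosomal RNA precursor, and 2 KO libraries and 1 WT library remained. All 2-cell libraries also passed the ERCC limit and were set beside the spike-in oocytes on that alone. Their Rn45s share was 0.513 to 0.935% in KO and 0.621 to 1.71% in WT. ERCC took 0.0478 to 0.0957% of counts in KO 2-cell and 0.0583 to 0.135% in WT 2-cell libraries. In spike-in oocytes ERCC took 0.0285 to 0.0389% in KO and 0.0382 to 0.0586% in WT. Rn45s took 1.25 to 1.54% of counts in spike-in KO and 1.20 to 3.55% in spike-in WT oocytes. In low-rRNA oocytes it took 0.207 to 0.432% in KO and 0.175 to 0.508% in WT. In the remaining libraries it took 1.78 and 2.32% in KO and 2.38% in WT. Since the low-rRNA set held 10 of 19 KO but 3 of 14 WT oocytes, values within sets are given beside those of all oocytes. Oocyte markers such as Zp3 and Gdf9 were present in every oocyte group, with all 7 of the list counted. Markers of cumulus and granulosa cells, which surround the oocyte, summed to 47.9 to 186 CPM in KO oocytes, with Foxl2, Amh and Fshr at 0, and 44.2 to 105 CPM in WT oocytes.

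No animal is named for a single cell, so each oocyte or 2-cell group counts as 1 sample and no test was run between them. Counts were pooled per group, and a gene is called higher or lower at 2-fold or more among genes with at least 10 CPM in either pool. Intervals in square brackets are exact 95% Poisson intervals of the log2 ratio of pooled CPM, and they cover counting error only. Near-identical copies are common among these genes, so reads could be split between them or dropped by the authors' counting. Counts were not divided by length, so levels of different genes are not compared.

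Histone genes took a minor share of the counts in oocyte and 2-cell libraries. As the RNA is labelled polyA and most of these mRNAs lack a poly(A) tail, this is not their share of cellular RNA. The summed CPM over all members had a median of 97.6 in KO oocytes (38.3 to 171) and 119 in WT oocytes (32.4 to 201). In 2-cell libraries the median of the sum was 116 CPM in KO (81.7 to 172) and 95.8 CPM in WT (76.2 to 149). A few genes carried most of it: the 5 most counted members held 64.4% of histone counts in KO oocytes and 62.0% in WT oocytes, and 48.8% in both KO and WT 2-cell libraries. In pools, 50 members had a count in KO oocytes and 50 in WT oocytes, while 14 and 16 of them reached 1 CPM. In the 2-cell pools 60 members had a count in KO and 57 in WT, with 23 in KO and 24 in WT at 1 CPM or more.

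The shares by type in oocytes depended on the library set. H4 genes held 37.4% of histone counts in KO 2-cell and 35.2% in WT 2-cell libraries, against 21.6% in KO oocytes and 23.0% in WT oocytes. In spike-in oocytes alone the H4 share was 36.6% in KO and 30.1% in WT. H2A held 9.52% in KO 2-cell and 13.9% in WT 2-cell libraries, against 27.3% in KO oocytes and 18.4% in WT oocytes, but 6.62% in spike-in KO and 7.31% in spike-in WT oocytes. The linker genes held 14.8% in KO 2-cell and 18.1% in WT 2-cell libraries, against 11.98% in KO oocytes and 18.7% in WT oocytes, with 15.7% in spike-in KO and 24.0% in spike-in WT oocytes.

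**Figure D1:**
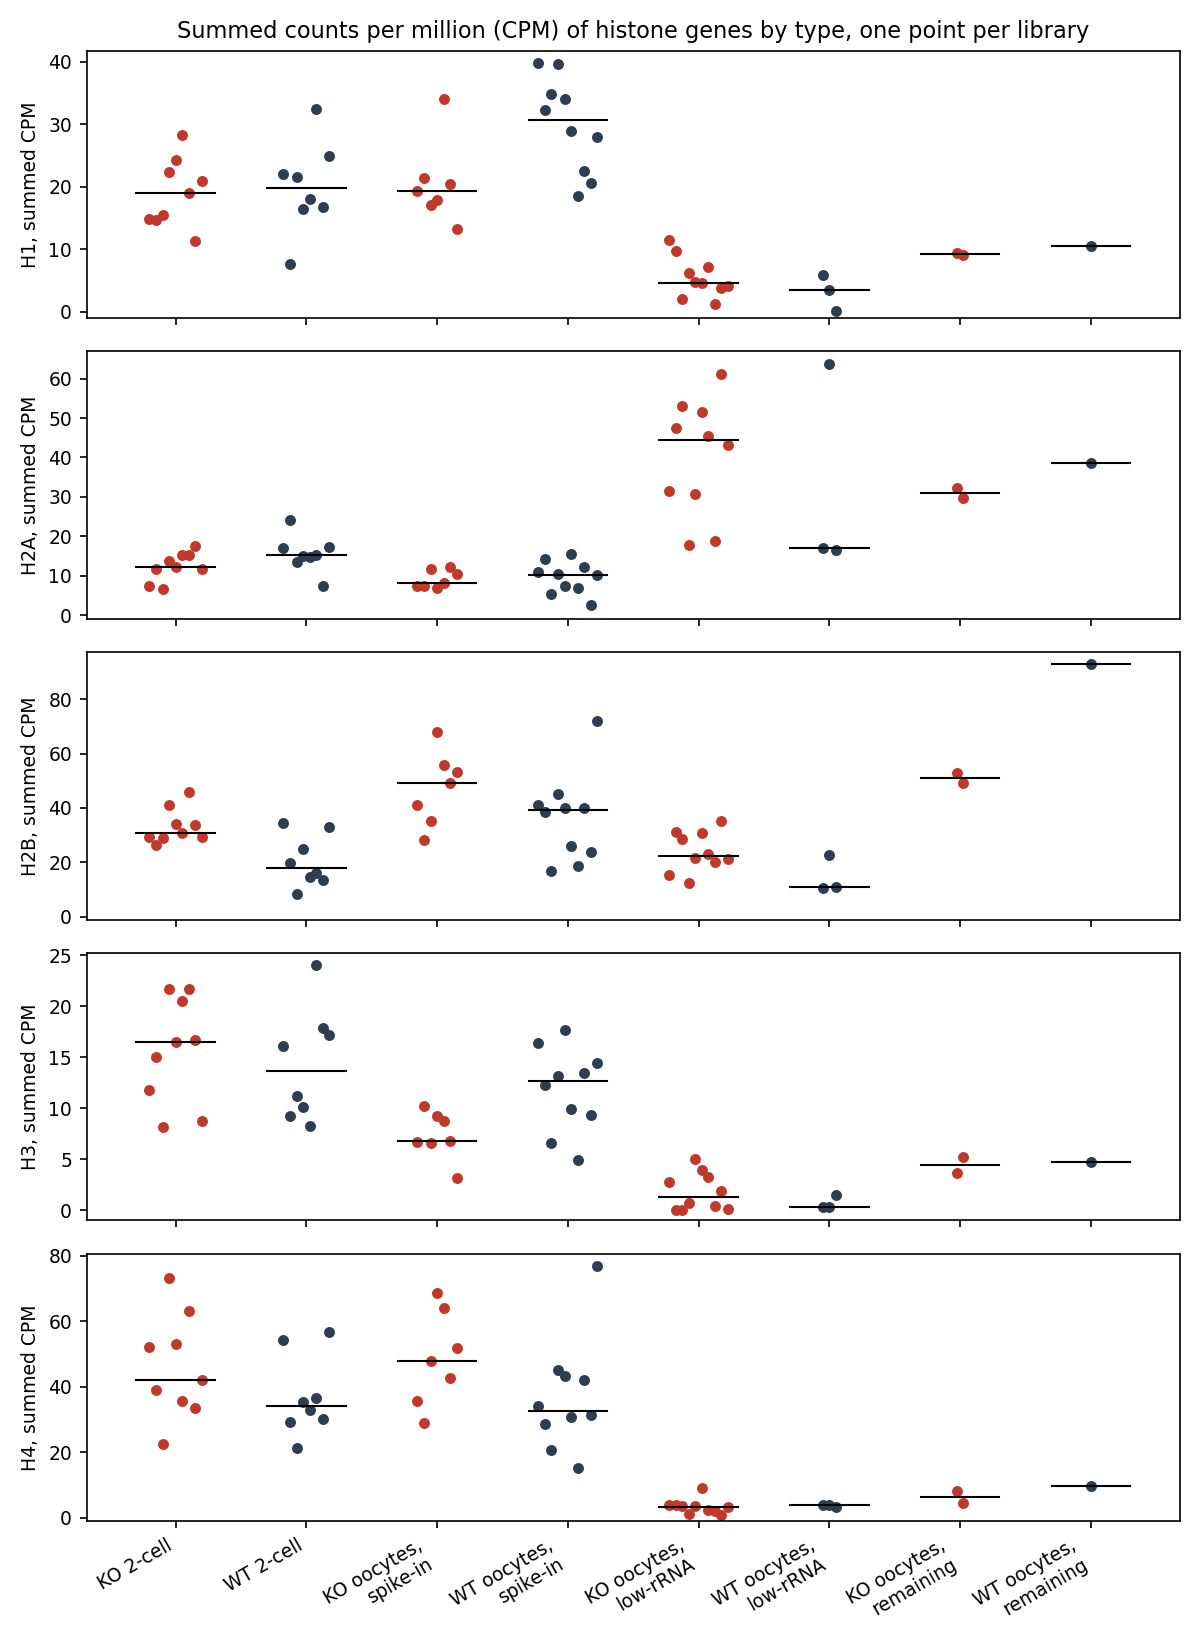
Summed CPM of the histone genes of each type (y axis, linear scale) for every oocyte and 2-cell library, by group and oocyte library set (x axis); bars are medians. H4 lies at 28.8 to 68.6 CPM in spike-in KO and 15.3 to 76.9 CPM in spike-in WT oocytes, against 0.823 to 9.26 CPM in low-rRNA KO and 3.21 to 4.05 CPM in low-rRNA WT oocytes.

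The largest split among oocytes ran between the library sets, in KO and WT alike. The pooled sums of H1, H2B, H3 and H4 were higher in spike-in than in low-rRNA libraries, while the H2A sum was lower, mostly through 1 gene, Hist1h2aa. Summed over all members, spike-in KO oocytes had 96.2 to 171 CPM against 38.3 to 103 CPM in low-rRNA KO oocytes. Spike-in WT oocytes had 64.3 to 201 CPM against 32.4 to 94.2 CPM in low-rRNA WT oocytes. These ranges overlapped in both genotypes, and the pooled log2 ratio was 0.84 [0.79, 0.89] in KO and 1.14 [1.07, 1.21] in WT. Without WT replicate 1 the WT ratio was 0.93 and without WT replicate 3 it was 0.89, both under 2-fold, and without WT replicate 2 it was 1.85. Without the germline genes Hist1h2aa and Hist1h2ba, the sum was 109 CPM in spike-in KO against 37.4 CPM in low-rRNA KO oocytes, a log2 ratio of 1.54 [1.48, 1.60]. In WT it was then 108 CPM in spike-in against 23.3 CPM in low-rRNA oocytes, a log2 ratio of 2.21 [2.11, 2.32], and the sets overlapped in neither genotype.

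By type, the H4 genes differed most in KO. Pooled H4 was 49.6 CPM in spike-in KO against 3.48 in low-rRNA KO oocytes, a log2 ratio of 3.83 [3.65, 4.02]. In WT it was 38.1 CPM in spike-in against 3.71 in low-rRNA oocytes, a log2 ratio of 3.36 [3.10, 3.63]. In neither genotype did the H4 sums of the 2 sets overlap. The remaining libraries, whose Rn45s shares were not low, had H4 sums below the spike-in range. These were 4.43 and 8.08 CPM in KO and 9.86 CPM in WT. Their H2B sums, 49.1 and 53.0 CPM in KO and 93.0 CPM in WT, lay above the low-rRNA range. H3 was 7.71 CPM in spike-in KO against 1.70 in low-rRNA KO oocytes, a log2 ratio of 2.18 [1.90, 2.47]. In WT, H3 was 12.2 CPM in spike-in against 0.666 in low-rRNA oocytes, a log2 ratio of 4.19 [3.59, 4.86], or 5.38 without WT replicate 3. H1 had log2 ratios of 1.88 [1.72, 2.03] in KO and 3.25 [2.98, 3.54] in WT, the WT value reaching 3.97 without WT replicate 1. H2B had log2 ratios of 1.01 [0.92, 1.09] in KO and 1.26 [1.12, 1.40] in WT; the KO value lay near the 2-fold limit and fell under it without any 1 of 9 KO libraries, to 0.87 at the lowest, and with TMM scaling to 0.81. The H2A sum was lower, with 8.97 CPM in spike-in KO against 40.9 in low-rRNA KO oocytes, and 9.26 CPM in spike-in WT against 34.5 in low-rRNA WT oocytes. Its log2 ratios were −2.19 [−2.33, −2.05] in KO and −1.90 [−2.04, −1.75] in WT, the WT value being −0.85 without WT replicate 2. Hist1h2aa held most of it. The other 18 H2A genes summed to 2.82 CPM in spike-in KO against 3.61 in low-rRNA KO oocytes, a log2 ratio of −0.35 [−0.64, −0.071], and to 3.02 CPM in spike-in WT against 1.33 in low-rRNA WT oocytes, a log2 ratio of 1.18 [0.71, 1.68]. These sums overlapped between the sets in both genotypes.

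At 10 CPM or more, 6 members were measured in KO and 5 in WT. The same 4 were higher in spike-in libraries of both genotypes, namely Hist1h1a, Hist1h2ba, Hist1h4c and Hist4h4, and Hist1h2aa was lower in both. Among all genes, 23.9% were called higher and 13.6% lower in KO, and 24.1% higher and 19.1% lower in WT. The median log2 ratio of the measured members was 3.01 in KO, against 0.27 for all genes, and 3.44 in WT, against 0.17 for all genes. Scaling factors that trim extreme genes (TMM) put the all-gene median at 0.06 in KO and 0.05 in WT, and in KO the share of higher genes among those called was then 51.6%, against 63.6% with CPM. With the limit lowered to 1 CPM, 12 of 19 members were higher and 2 lower in KO, and 13 of 17 were higher and 2 lower in WT; among all genes 26.7% were then higher and 14.8% lower in KO, and 28.1% higher and 20.1% lower in WT.

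Hist1h2aa and Hist1h2ba encode the germline variants TH2A and TH2B, known from testis and oocytes, and lie head to head on chromosome 13 with a shared promoter. They moved in opposite directions between the sets. Hist1h2aa had 4.98, 5.94 and 8.29 CPM (lowest, median and highest) in spike-in KO oocytes, against 15.0, 39.6 and 58.6 CPM in low-rRNA KO oocytes. In WT it had 0.690, 6.08 and 11.6 CPM in spike-in oocytes, against 13.9, 16.9 and 62.4 CPM in the 3 low-rRNA oocytes. Every low-rRNA library therefore lay above every spike-in library, and the log2 ratios were −2.60 [−2.76, −2.44] in KO and −2.41 [−2.58, −2.25] in WT. The remaining libraries, at 24.6 and 28.6 CPM in KO and 34.7 CPM in WT, also lay above every spike-in library. Without WT replicate 2, the highest low-rRNA library, the WT ratio was −1.30. Hist1h2ba had 8.47, 21.3 and 31.0 CPM in spike-in KO oocytes, against 0, 0.504 and 3.91 CPM in low-rRNA KO oocytes. In WT it had 1.35, 13.8 and 27.3 CPM in spike-in oocytes and 0, 0.613 and 2.57 CPM in low-rRNA oocytes. Its log2 ratio was 4.34 [4.01, 4.68] in KO, where the sets did not overlap, and 3.59 [3.10, 4.11] in WT, where they did, with 5.21 without WT replicate 1.

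The promoters of this pair and of 2 further members named above are shown because these genes carry the contrast between the sets. Sequences are from RefSeq on GRCm38.p6, a later build than the mm9 named in the submitters' notes. Each runs 5′ to 3′ over the 250 bases before the gene start. Hist1h2aa lies at chr13:23934187-23934436 on the plus strand, Hist1h1a at chr13:23763418-23763667 on the plus strand and Hist1h4c at chr13:23698459-23698708 on the minus strand. The first 220 bases of the Hist1h2aa window, chr13:23934187-23934406, are shared with the Hist1h2ba window, chr13:23934157-23934406 on the minus strand, of which the other 30 bases are not shown. Capitals mark 4 sets of letters on either strand. The octamer was searched as ATTTGCAT. The other sets were the CCAAT box, the letters TATAAA of the TATA box and a linker promoter motif spelled AAACACA.
Hist1h2aa: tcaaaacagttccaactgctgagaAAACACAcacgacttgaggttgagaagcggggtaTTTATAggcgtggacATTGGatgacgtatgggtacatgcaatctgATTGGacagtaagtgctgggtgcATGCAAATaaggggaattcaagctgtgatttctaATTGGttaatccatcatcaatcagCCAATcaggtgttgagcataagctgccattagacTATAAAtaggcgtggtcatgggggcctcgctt
Hist1h1a: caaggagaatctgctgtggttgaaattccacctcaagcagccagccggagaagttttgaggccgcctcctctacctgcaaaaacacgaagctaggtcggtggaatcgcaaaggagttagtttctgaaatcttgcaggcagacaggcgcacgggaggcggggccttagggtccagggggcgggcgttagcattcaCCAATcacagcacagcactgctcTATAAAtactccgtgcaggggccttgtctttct
Hist1h4c: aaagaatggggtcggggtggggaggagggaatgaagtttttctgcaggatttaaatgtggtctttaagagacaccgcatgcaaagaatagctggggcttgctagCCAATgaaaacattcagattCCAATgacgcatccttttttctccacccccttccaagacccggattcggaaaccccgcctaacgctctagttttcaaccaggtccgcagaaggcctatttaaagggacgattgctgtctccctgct

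Of the 69 members, 68 matched 1 RefSeq gene and 61 of these had a promoter entry. CCAAT was found in 50 of the 61 (82.0%), against 34.5% of all 27025 promoters. TATAAA was found in 29 (47.5%), against 13% of all. The octamer was found in 13 (21.3%), against 1.61% of all, in 7 of 17 H2A and 6 of 16 H2B promoters and in none of H1, H3 or H4. AAACACA, a motif known from linker histone promoters, was found in 9 (14.8%), against 6.22% of all, 5 of them among the 6 H1 promoters. No pair of matches overlapped within a member. Among those shown, the octamer is in the window of Hist1h2aa and Hist1h2ba and in neither of the other windows. The letters describe these windows and were not tested against the counts.

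The other members called in both genotypes encode a linker histone and H4. Hist1h1a, a linker histone gene, had 8.33, 15.5 and 17.5 CPM (lowest, median and highest) in spike-in KO oocytes and 0, 2.31 and 8.71 CPM in low-rRNA KO oocytes. In WT it had 18.1, 29.4 and 38.5 CPM in spike-in oocytes and 0.0943, 3.37 and 5.89 CPM in low-rRNA oocytes. The sets overlapped in KO and not in WT, and the log2 ratios were 2.45 [2.23, 2.68] in KO and 3.18 [2.90, 3.47] in WT, or 3.91 in WT without WT replicate 1. Hist1h4c, an H4 gene, had log2 ratios of 3.56 [3.30, 3.84] in KO and 3.44 [2.99, 3.93] in WT, or 4.30 in WT without WT replicate 2. Hist4h4, the H4 gene outside the large clusters, had 13.4 to 20.1 CPM in spike-in KO oocytes, while 9 of 10 low-rRNA KO oocytes had no count and the other had 3 counts. Its log2 ratio in KO was 8.73 with the wide interval [7.18, 11.01]. In WT it was 3.76 [3.19, 4.38], or 5.60 without WT replicate 3, with 0.771 to 24.4 CPM in spike-in and 0 to 1.98 CPM in low-rRNA oocytes.

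**Figure D2:**
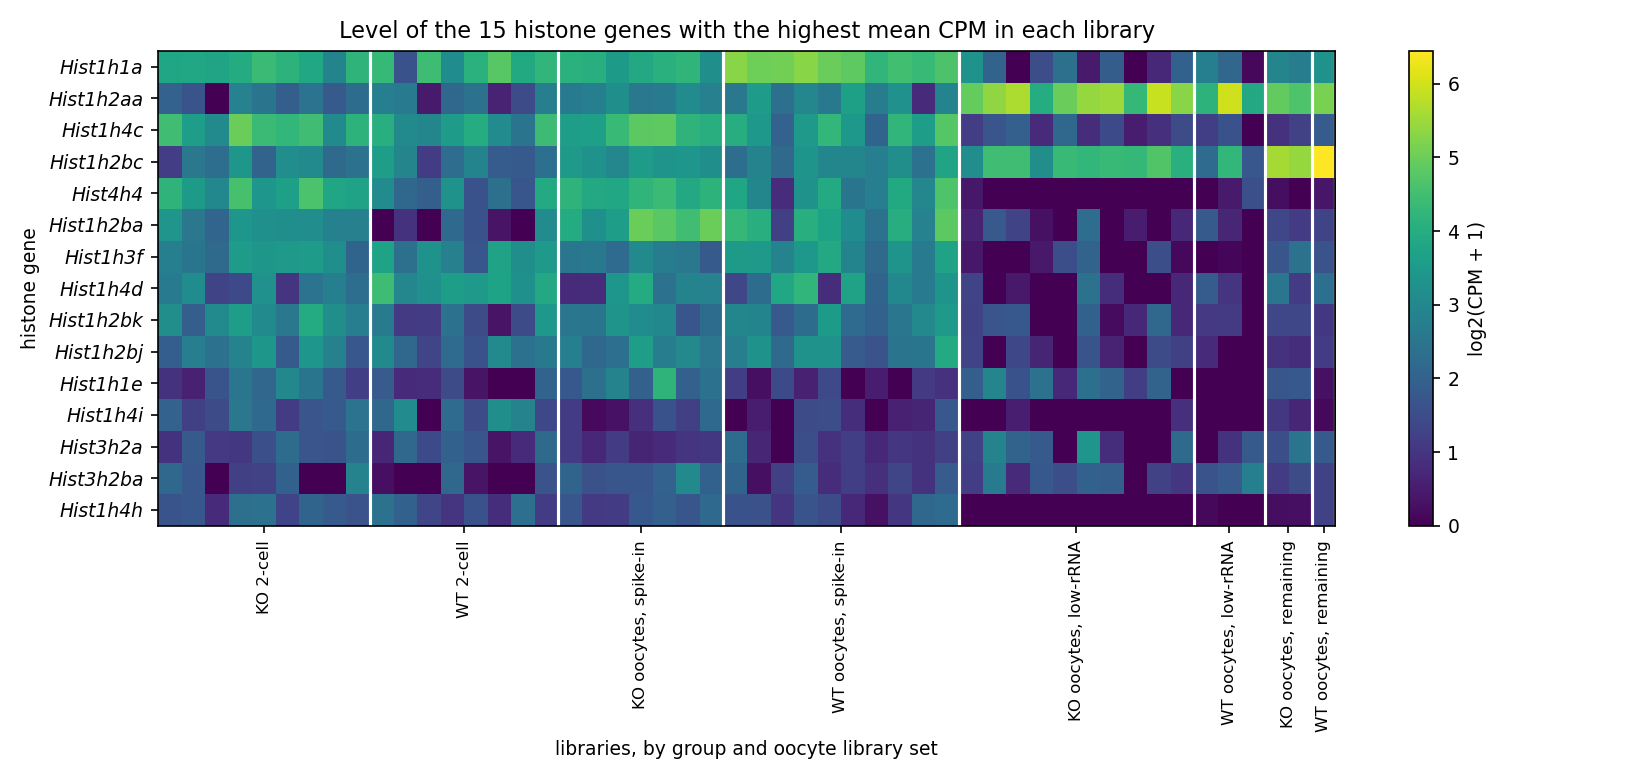
Level of the 15 histone genes with the highest mean of the 4 pooled CPM (rows), as log2(CPM + 1), in every oocyte and 2-cell library (columns), by group and library set. Hist1h2aa is brighter in the low-rRNA columns, while Hist4h4 and Hist1h4h are dark there.

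Members below 10 CPM mostly followed the larger group. Hist1h3f, an H3 gene, had log2 ratios of 2.82 [2.40, 3.25] in KO, or 3.46 without KO replicate 6, and 8.27 [5.79, 13.6] in WT, the WT value resting on 1 count in the low-rRNA pool and being 6.00 without WT replicate 2. The H4 gene Hist1h4d had 3.00 [2.61, 3.41] in KO, or 3.95 without KO replicate 6, and 2.64 [2.19, 3.13] in WT, with 3.79 in WT without WT replicate 1. The H2B gene Hist1h2bj had 2.62 [2.27, 2.99] in KO and 4.85 [3.86, 6.07] in WT, between 4.17 and 5.72 without WT replicate 2 or 1, and Hist1h2bk had 2.06 [1.74, 2.38] in KO and 2.99 [2.43, 3.61] in WT. Hist1h4h had 128 counts in spike-in KO and none in low-rRNA KO oocytes, a log2 ratio of at least 5.86 against a floor of 3 counts over the group. Hist1h2bc, an H2B gene, went slightly the other way with log2 ratios of −0.91 [−1.05, −0.76] in KO and −0.37 [−0.58, −0.15] in WT, neither 2-fold. The Hist3 members differed between genotypes. Hist3h2a was lower in spike-in KO (−1.74 [−2.20, −1.30]) and 0.20 [−0.37, 0.78] in WT, while the H2B gene Hist3h2ba was 0.69 [0.38, 1.00] in KO and −1.15 [−1.54, −0.75] in WT, the WT value being −0.60 without WT replicate 3.

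**Figure D3:**
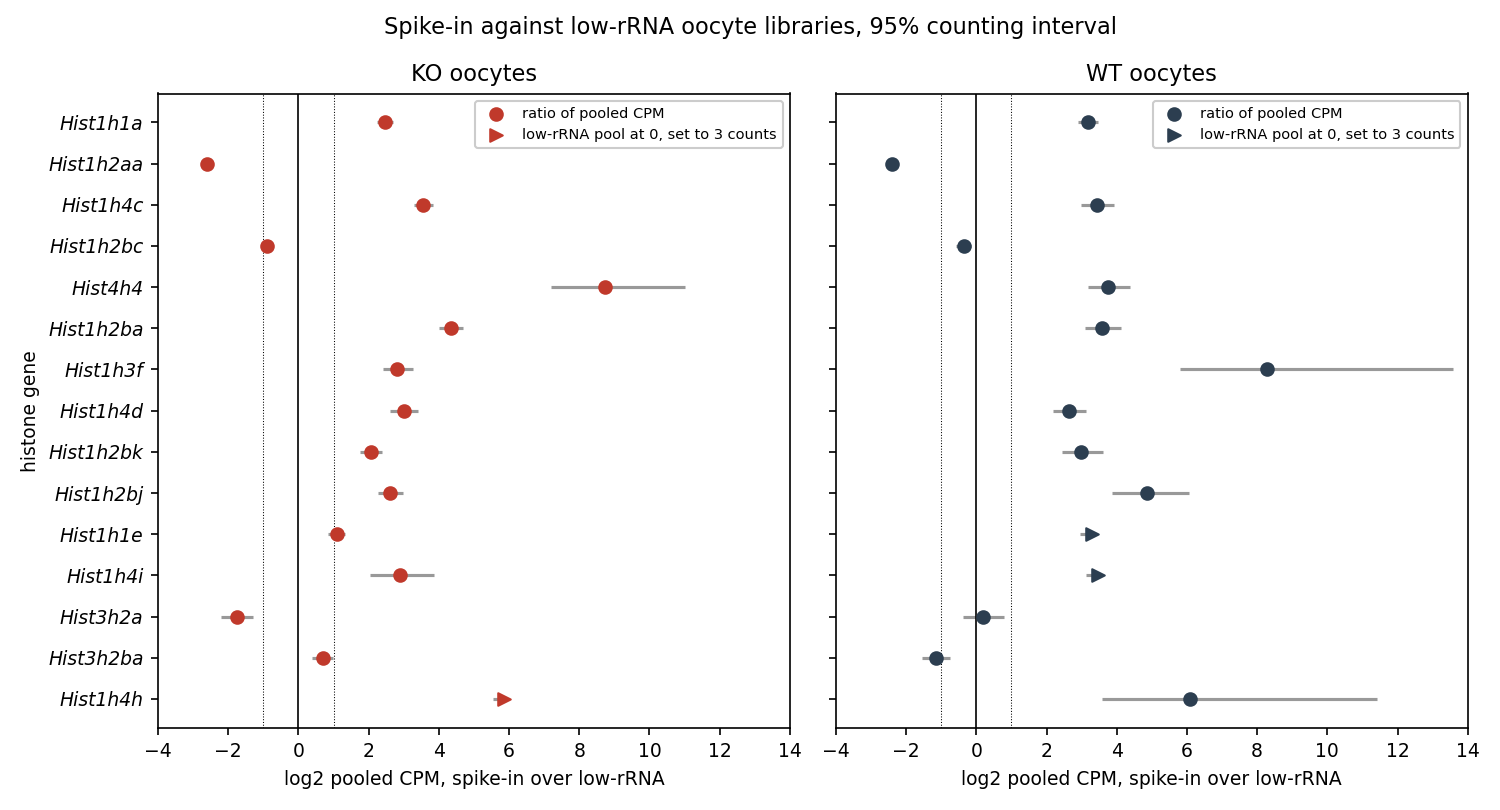
Log2 ratio of pooled CPM, spike-in over low-rRNA oocytes (x axis), for the same 15 genes (rows) in KO and WT oocytes; lines are 95% counting intervals, dotted lines mark 2-fold, and a triangle marks a gene with no count in the low-rRNA pool, set to 3 counts. Hist1h2aa is the gene beyond 2-fold lower in both genotypes.

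The sum of the replacement variant genes showed the opposite split. The 12 replacement variant genes summed to 8954 to 12328 CPM in spike-in KO against 24624 to 28684 CPM in low-rRNA KO oocytes. In WT they summed to 7063 to 8656 CPM in spike-in against 23456 to 24817 CPM in low-rRNA oocytes, and no ranges overlapped. Of the 8 measured in KO, 5 were lower and none higher, and of the 9 measured in WT, 5 were lower and 1, Cenpa, was higher. Among all genes, 13.6% were lower and 23.9% higher in KO, and 19.1% lower and 24.1% higher in WT. H1foo, the oocyte linker histone, had log2 ratios of −1.36 [−1.37, −1.35] in KO and −2.34 [−2.35, −2.33] in WT, and H3f3b, a replacement H3 gene, had −1.28 [−1.29, −1.27] in KO and −1.08 [−1.08, −1.07] in WT. Of the genes for histone mRNA processing and transcription, 4 of 19 were higher and 2 lower in KO. In WT 4 of 19 were higher and 3 lower, and both results lay near the shares of all genes. Slbp, whose product binds the histone stem-loop, was at 8905 CPM in spike-in KO against 5675 in low-rRNA KO oocytes, a log2 ratio of 0.65 [0.64, 0.66]. Of the 125 listed genes of RNA without a poly(A) tail, Rn45s was used to define the sets. The others summed to 2.35 to 11.3 CPM in spike-in KO against 1.17 to 4.07 CPM in low-rRNA KO oocytes, which overlapped, and to 4.25 to 24.3 CPM in spike-in WT against 2.38 to 3.22 CPM in low-rRNA WT oocytes, which did not. The part of RNA capture in the histone split was not tested.

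Between KO and WT oocytes few members were called apart, and the direction of the histone total depended on the library set. The pooled sum was 101 CPM in KO and 107 CPM in WT oocytes, a log2 ratio of −0.09 [−0.12, −0.05]. It was 0.10 [0.052, 0.14] in spike-in, 0.40 [0.33, 0.47] in low-rRNA and −0.61 [−0.73, −0.50] in the remaining libraries. At 10 CPM, 3 members were measured, of which none was higher and 1, Hist1h1a, was lower; among all genes 2.04% were called higher and 2.39% lower. Higher genes were 46.1% of all called genes, and 56.2% when the mean of library CPM replaced the pool. At 1 CPM, 17 were measured, with Hist1h1e higher and Hist1h1a and Hist1h3f lower, against 5.24% of all genes higher and 5.56% lower. The median log2 ratio of those 17 was −0.21, against 0.01 for all genes. At 10 CPM within sets, none of 4 members measured in spike-in libraries was called, against 9.41% of all genes higher and 3.69% lower. None of 2 was called in low-rRNA libraries, against 1.98% higher and 2.03% lower, and none of 2 in the remaining libraries, against 5.17% higher and 3.73% lower.

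Among linker genes, Hist1h1a and Hist1h1e differed in opposite directions. Hist1h1a had 0, 5.64 and 17.5 CPM (lowest, median and highest) in KO oocytes and 0.0943, 22.9 and 38.5 CPM in WT oocytes. Its pooled log2 ratio was −1.33 [−1.44, −1.22] across sets. Within sets it was −0.99 [−1.11, −0.88] in spike-in, −0.27 [−0.61, 0.08] in low-rRNA and −0.52 [−1.01, −0.04] in the remaining libraries, in each case under 2-fold. In spike-in libraries alone, all 7 KO oocytes lay below all 10 WT oocytes, the highest KO at 17.5 CPM and the lowest WT at 18.1 CPM. Hist1h1e, another linker histone gene, had 0, 2.97 and 17.3 CPM in KO oocytes and 0, 0.321 and 1.73 CPM in WT oocytes. Of 19 KO oocytes, 18 lay above the WT median. Its log2 ratio was 2.97 [2.58, 3.39] across sets, 2.85 [2.44, 3.29] in spike-in and 3.47 [1.46, 6.59] in the remaining libraries. In low-rRNA libraries it had 226 counts in KO and none in WT, a log2 ratio of at least 5.05 against a floor of 3 counts over the group. In spike-in libraries the KO range of 2.40 to 17.3 CPM lay above the WT range of 0 to 1.73 CPM. Its WT pool held 57 counts.

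By type, the values also depended on the set. H1 had a log2 ratio of −0.72 [−0.82, −0.63] over all oocytes and −0.52 [−0.62, −0.41] in spike-in libraries, but 0.86 [0.56, 1.18] in low-rRNA libraries. H3 had −0.89 [−1.04, −0.74] over all, or −1.11 by the mean of library CPM, and −0.66 [−0.83, −0.49] in spike-in libraries, but 1.35 [0.70, 2.05] in low-rRNA libraries. H2A was 0.48 [0.40, 0.56] over all, −0.05 [−0.22, 0.13] in spike-in and 0.25 [0.15, 0.34] in low-rRNA libraries. H2B was 0.02 [−0.04, 0.08] over all, 0.38 [0.30, 0.46] in spike-in and 0.63 [0.49, 0.77] in low-rRNA libraries. H4 was −0.18 [−0.25, −0.10] over all, but 0.38 [0.30, 0.46] in spike-in and −0.09 [−0.40, 0.22] in low-rRNA libraries. In the remaining libraries, 2 KO and 1 WT, the ratio was −0.18 for H1, −0.31 for H2A, −0.86 for H2B, −0.11 for H3 and −0.63 for H4. Hist1h3f had −1.07 [−1.25, −0.88] over all and −0.80 [−1.01, −0.60] in spike-in libraries, but 4.65 [2.11, 9.98] in low-rRNA libraries, where the WT pool held 1 count, and 0.63 [−0.20, 1.5] in the remaining ones. Without any 1 of 10 single libraries its ratio across sets fell under 2-fold, to −0.86 without WT replicate 8. Hist1h4c and Hist4h4 had log2 ratios of 0.05 [−0.07, 0.18] and 0.02 [−0.12, 0.17] over all oocytes, with the sign turned by the mean of library CPM (−0.25 and −0.29), and 0.59 [0.46, 0.72] and 0.68 [0.54, 0.83] in spike-in libraries. Among the genes that process and transcribe histone mRNA, 1 of 18 was higher and 1 lower, and of 8 replacement variants measured none was called. The shares of all genes were 2.04% higher and 2.39% lower.

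In 2-cell cells, KO and WT differed in single H4, H2B and H1 genes. The pooled histone sum was 139 CPM in KO and 113 CPM in WT 2-cell libraries, a log2 ratio of 0.30 [0.25, 0.35]. By type, H2B was 0.65 [0.54, 0.76] and H4 0.39 [0.30, 0.47], while H1 was 0.00 [−0.12, 0.13], H2A −0.25 [−0.40, −0.10] and H3 0.30 [0.15, 0.44]. At 10 CPM, 4 members were measured, with 1 higher and 1 lower in KO. Among all genes 5.96% were higher and 31.6% lower. The median log2 ratio of the measured members was 0.32, against −0.35 for all genes. With TMM scaling the all-gene median was −0.01, and the share of higher genes among those called was 32.9%, against 15.9% with CPM. The summed ratio was then 0.58, and H2A was 0.03, so its sign depends on the scaling. At 1 CPM, 7 of 27 members were higher and 5 lower in KO, against 7.19% and 37.2% of all genes, and their median was 0.46, against −0.51 for all genes.

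The H4 genes diverged. Hist4h4 had 7.03, 12.2 and 23.6 CPM (lowest, median and highest) in KO and 2.07, 3.85 and 14.4 CPM in WT 2-cell libraries. All 9 KO libraries lay above the WT median, and the ranges overlapped, with WT replicates 1, 4 and 8 above the lowest KO library. The log2 ratio was 1.16 [0.97, 1.35], 0.94 without KO replicate 4. Hist1h4d had 0.967, 4.49 and 8.55 CPM in KO and 6.93, 10.6 and 20.9 CPM in WT 2-cell libraries, a log2 ratio of −1.5 [−1.72, −1.28]. No KO library reached the WT median. Hist1h4c was 20.0 CPM in KO and 12.3 CPM in WT 2-cell libraries, a log2 ratio of 0.70 [0.55, 0.85], and Hist1h4i was −0.24 [−0.55, 0.07], or 0.04 with TMM scaling.

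Of the H2B and H1 genes, Hist1h2ba showed the clearest difference. It had 3.33, 7.98 and 9.40 CPM (lowest, median and highest) in KO and 0, 0.594 and 7.67 CPM in WT 2-cell libraries, a log2 ratio of 1.53 [1.23, 1.84]. Without WT replicate 8, which held the highest WT level, the ratio was 2.84. Hist1h2bk had 8.50 CPM in KO and 4.22 CPM in WT 2-cell libraries, a log2 ratio of 1.01 [0.76, 1.26] that was 1.81 without WT replicate 8 and fell under 2-fold, to between 0.83 and 0.93, without any of 7 other single libraries. Hist1h1e was again higher in KO, at 3.72 CPM against 1.52 CPM in WT 2-cell libraries, a log2 ratio of 1.29 [0.89, 1.71], or 1.92 without WT replicate 8. Hist1h1b, a linker histone gene, was lower in KO, at 1.155 CPM against 2.71 CPM in WT, a log2 ratio of −1.23 [−1.67, −0.79], or −0.83 without KO replicate 4 and −0.94 with TMM scaling. The 5 members lower at 1 CPM were Hist1h1b, Hist1h4d, Hist1h2ae, Hist2h2ac and Hist2h2be. Of these the H2A gene Hist2h2ac, named after its values were seen, had 0.369 CPM in KO and 2.33 CPM in WT 2-cell libraries, a log2 ratio of −2.66 [−3.38, −2.0]. Hist1h1a was −0.07 [−0.22, 0.07], or 0.21 with TMM scaling, and Hist1h2aa was 0.09 [−0.20, 0.39]. WT replicate 8 also had the lowest paternal share of all-gene counts among WT libraries, at 4.00%. It had the largest total of the WT 2-cell libraries, 10303580 counts with the next at 6053731, and so weighs most in the WT pool. Its ERCC share of 0.0583% and Rn45s share of 0.621% were the lowest of that group.

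Lists of related genes were read beside the 5.96% of all genes higher and 31.6% lower in KO 2-cell libraries, and nothing particular to a list was read from its counts. Slbp was at 5528 CPM in KO against 1544 CPM in WT 2-cell libraries, a log2 ratio of 1.84 [1.83, 1.85]. Of 22 processing and transcription genes measured, 2 were higher and 7 lower in KO. Of 9 replacement variants, H1foo was higher, with a log2 ratio of 3.42 [3.40, 3.43], and 4 were lower, among them H2afz at −1.89 [−1.91, −1.86] and Cenpa, the centromeric H3, at −1.56 [−1.60, −1.52]. Of 19 S phase genes, 1 was higher and 5 lower.

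Set against pools of all oocytes, 2-cell pools had more H3 and H4. The spike-in oocytes were like the 2-cell libraries in passing the ERCC limit, but in KO their Rn45s shares did not overlap. Against the spike-in oocytes H4 was close to even, and H2A and H3 were higher, H3 in KO by over 2-fold and the rest by less. KO 2-cell libraries had 139 CPM against 101 CPM in KO oocytes in sum, a log2 ratio of 0.46 [0.42, 0.49], and 0.03 [−0.01, 0.08] against spike-in KO oocytes. WT 2-cell libraries had 113 CPM against 107 CPM in WT oocytes, a log2 ratio of 0.07 [0.02, 0.12], and −0.17 [−0.22, −0.11] against spike-in WT oocytes; with TMM scaling the ratio to all WT oocytes was −0.50. H4 was 1.25 [1.18, 1.32] in KO 2-cell against KO oocytes, or 0.97 with TMM scaling, and 0.07 [−0.01, 0.14] against the spike-in ones. In WT, H4 was 0.68 [0.60, 0.77] against all and 0.06 [−0.03, 0.15] against spike-in oocytes. H3 was 2.06 [1.91, 2.20] in KO 2-cell against KO oocytes and 1.20 [1.04, 1.36] against the spike-in ones, while in WT it was 0.87 [0.72, 1.02] and 0.24 [0.09, 0.40]. H2A turned direction, at −1.06 [−1.17, −0.96] in KO against all (under 2-fold without any 1 of 5 KO oocytes) and 0.56 [0.40, 0.72] against spike-in oocytes, and −0.33 [−0.46, −0.21] and 0.76 [0.60, 0.93] in WT. H2B was 0.00 [−0.07, 0.07] and −0.44 [−0.52, −0.36] in KO, and −0.63 [−0.73, −0.53] and −0.71 [−0.82, −0.60] in WT.

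At 10 CPM against all oocytes, 5 members were measured in each genotype. In KO 2-cell libraries Hist1h4c and Hist4h4 were higher and Hist1h2aa and Hist1h2bc lower, and in WT 2-cell libraries Hist1h4d was higher and Hist1h2aa and Hist1h2bc lower. Of all genes, 23.6% were higher and 17.4% lower in KO, and 41.1% higher and 14.3% lower in WT. With TMM scaling the all-gene median was −0.10 in KO and −0.04 in WT, against 0.23 and 0.64 with CPM, and higher genes were 39.7% and 51.2% of those called, against 57.6% and 74.1%. With TMM scaling Hist1h4d in WT was 0.60 and Hist1h4c in KO 0.93, and Hist1h4c in KO was 0.94 without KO 2-cell replicate 4. Hist1h2aa in WT had −2.20 [−2.44, −1.97], or −1.56 without WT oocyte replicate 2. Hist1h2bc in WT had a log2 ratio of −1.60 [−1.81, −1.38] that was −0.66 without WT oocyte replicate 14, which alone had 86.3 CPM. Against spike-in oocytes 4 members were measured in KO and 5 in WT. Only Hist1h2ba was called in either genotype, and it was lower in both. Of all genes, 19.5% were then higher and 16.3% lower in KO, and 42.1% higher and 12.8% lower in WT. A single call per genotype was not read as more than these shares. At 1 CPM against all oocytes, 12 of 23 members were higher and 2 lower in KO, against 35.4% and 13.1% of all genes. In WT 10 of 26 were higher, against 50.6% of all genes, and 5 were lower (Hist1h2aa, Hist1h2ba, Hist1h2bc, Hist2h3b and Hist3h2ba), beside 1640 lower among 14215 genes.

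Against spike-in oocytes Hist1h2ba was thus the only member called between the stages at 10 CPM. It had 3.33, 7.98 and 9.40 CPM in KO 2-cell libraries against 8.47, 21.3 and 31.0 CPM in spike-in KO oocytes, a log2 ratio of −1.42 [−1.58, −1.27]. In WT it had 0, 0.594 and 7.67 CPM in 2-cell libraries against 1.35, 13.8 and 27.3 CPM in spike-in oocytes, a log2 ratio of −2.24 [−2.53, −1.95]. The ranges overlapped in both. The partner gene Hist1h2aa had −0.62 [−0.86, −0.38] in KO and −0.73 [−1.0, −0.46] in WT against spike-in oocytes. Below 10 CPM, Hist1h1b had 72 counts in KO 2-cell libraries and none in KO oocytes, a log2 ratio of at least 5.82 against a floor of 3 counts over the group. In WT 2-cell libraries Hist1h1b was 2.71 CPM against 0.147 CPM in WT oocytes, a log2 ratio of 4.20 [3.44, 5.06], and 8.08 without WT oocyte replicate 8, which held 15 of the 16 oocyte counts. Hist1h4i was 1.32 [0.92, 1.74] in KO and 1.93 [1.5, 2.38] in WT against spike-in oocytes.

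Paternal-allele counts are the histone counts of 2-cell cells assigned to the paternal allele, and they may include wrong assignments. Most allele-assigned histone counts were maternal in both groups, and the paternal share was lower in KO. In KO 2-cell libraries 153 of 3360 allele-assigned histone counts were paternal, 4.55% with an exact 95% interval of 3.87 to 5.31%. In WT 2-cell libraries it was 209 of 1960, 10.7% (9.33 to 12.1%). For all genes the paternal share was 2.79% in KO and 14.6% in WT. The difference in histone share was −6.11 percentage points, and −9.54 without WT replicate 8, where the WT share was 14.1%. Per library the histone share was 1.33, 4.41 and 17.1% (lowest, median and highest) in KO and 2.57, 14.0 and 17.4% in WT, so the ranges overlapped. The histone share lay below the all-gene share in 1 of 9 KO and in 6 of 8 WT libraries. Oocyte counts were not split by allele in the deposited tables, with no paternal count in any of 33 oocytes, so the rate of wrong assignment could not be read from them. Of 653 values above 0, 8 held more allele than total counts.

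**Figure D4:**
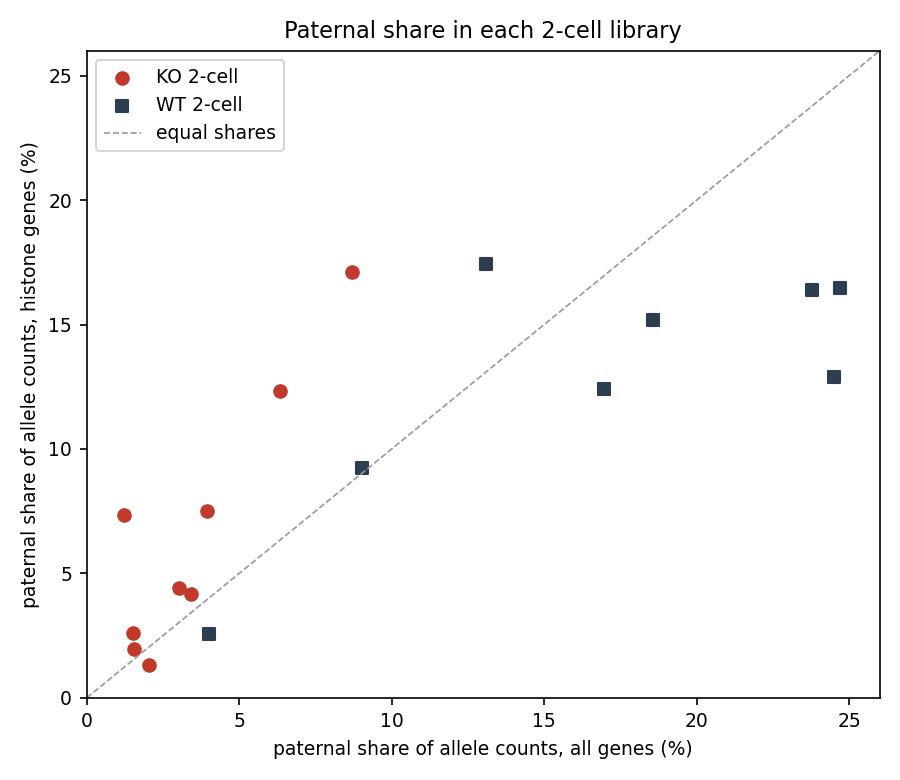
Paternal share of allele-assigned counts in each 2-cell library, for all genes (x axis, %) and for the histone genes (y axis, %), with KO as circles and WT as squares; the dashed line marks equal shares. WT libraries spread to 24.7% on the x axis and 17.4% on the y axis, and 8 of 9 KO libraries lie above the line.

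The paternal share differed by type. Allele-assigned counts were 38.8% of all histone counts in KO and 40.5% in WT 2-cell libraries. H3 had the highest paternal share, at 21.6% (16.53 to 27.4%) in KO and 34.4% (25.0 to 44.8%) in WT 2-cell libraries. It rested on 236 and 96 allele counts, which were 21.4% of H3 counts in KO and 15.6% in WT. H2A had 10.5% (7.40 to 14.4%) in KO and 19.9% (15.3 to 25.2%) in WT, and H2B had 4.40% (3.19 to 5.90%) in KO and 17.1% (13.7 to 20.9%) in WT. H1 had 2.92% (1.82 to 4.43%) in KO and 6.92% (4.92 to 9.41%) in WT. H4 had 0.443% (0.144 to 1.03%) in KO and 1.47% (0.675 to 2.77%) in WT.

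Several of the most counted members had few or no paternal counts. Hist1h1a had 0 of 601 allele counts paternal in KO and 5 of 447 in WT 2-cell libraries, the 5 from 1 library. Hist1h4c had 0 of 450 in KO and 4 of 207 in WT, and Hist4h4 had 0 of 433 in KO and 3 of 142 in WT. Hist1h4d had 0 of 69 in KO and 0 of 160 in WT. Hist1h2ba had 0 of 216 in KO, which allows a share of up to 1.69%. Hist1h2aa had 7 of 129 in KO and 1 of 66 in WT, and Hist1h3f had 9 of 49 in KO and 1 of 25 in WT. Hist1h2bc stood apart, with 0 of 222 in KO, up to 1.65%, and 32 of 146 in WT, 21.9% (15.5 to 29.5%), spread over 4 of 8 libraries. Hist1h1b had 24 of 50 paternal counts in WT, 48.0%, from 3 of 8 libraries, with 11 of them from 1 library. Hist2h2ac had 21 of 51 in WT, 41.2%, from 6 of 8 libraries, and 7 of 11 in KO.

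In epiblast, the share of counts on histone genes was far lower in IVC than in E6.5. The summed level was 283 and 360 CPM in the IVC libraries, against 4601 and 8390 CPM in the E6.5 libraries. The means were 321 ± 54.2 CPM in IVC and 6496 ± 2679 CPM in E6.5 (SD, n = 2 each), 20.2-fold lower in IVC. No type overlapped. H3 was 101-fold and H1 73.2-fold lower in IVC, and H2A was 18.4-fold, H4 11.3-fold and H2B 10.7-fold lower. The make-up shifted with this, since H2B held 45.0% of the mean histone level in IVC against 23.9% in E6.5, and H3 held 4.90% in IVC against 24.5% in E6.5. With 2 libraries against 2, the smallest p a two-sided exact permutation test of a sum can give is 0.333. In these bulk samples fewer cells that make a transcript, less RNA per cell and a difference in RNA capture cannot be told apart. Rn45s took 0.101 and 0.121% of counts in IVC and 26.2 and 23.3% in E6.5.

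Across genes, 41 members were lower in IVC and none higher among 58 tested with edgeR's quasi-likelihood test at a Benjamini-Hochberg adjusted p under 0.05; in the same test 12% of all genes were higher and 23.5% lower. Leaving out E6.5 replicate 1 left 15 members and leaving out E6.5 replicate 2 left 3, all lower. By type, 5 of 6 H1, 8 of 13 H2A, 11 of 17 H2B, 9 of 10 H3 and 8 of 12 H4 genes tested were lower. Of the 58, 29 had no count in IVC, so they entered the test through E6.5 alone, and all 29 passed. They are part of the 41 and of the counts by type, and their passing is not read as support. Of the other 29, which had IVC counts, 12 passed, and their median log2 ratio was −3.82, against −0.85 for all genes. Both IVC libraries lay below both E6.5 libraries for all but 3 tested members (Hist1h2ag, Hist1h4i and Hist3h2ba), and the same order held for 53.7% of all genes tested. A further 11 members were not tested, 8 of them without a count in any epiblast library. Same-group libraries are not said to come from separate animals, so the p-values measure the spread between libraries.

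Members with no count in IVC cannot be ranked against each other, and the order of their fitted ratios follows the E6.5 level. The 10 with the lowest fitted log2 ratios were Hist1h3e, Hist1h1a, Hist1h2bg, Hist1h4a, Hist1h3a, Hist1h3f, Hist1h2ak, Hist1h3d, Hist1h3b and Hist1h3h, all with no count in either IVC library. Hist1h3e had 0 and 0 CPM in IVC against 275 and 404 CPM in E6.5, at least 2484-fold lower against a floor of 3 counts over the group. Hist1h1a had 0 and 0 CPM in IVC against 186 and 410 CPM in E6.5, at least 2309-fold lower. Hist1h2bg had 0 and 0 CPM in IVC against 163 and 231 CPM in E6.5, at least 1435-fold lower. Over the 29 members at 0 in IVC such bounds ran from 18.2-fold to 2484-fold. With these members at their bounds the median log2 ratio over the 58 was −7.39; the fitted median, which depends on the prior count, was −8.73.

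Among the 29 members with IVC counts, 12 passed and 17 did not. Hist1h1e had 1.16 and 0 CPM in IVC against 194 and 361 CPM in E6.5, a log2 ratio of −8.59 ± 1.71 with an edgeR adjusted p of 0.040. Hist1h1c, a linker gene known to be expressed outside S phase as well, had 6.17 and 4.00 CPM in IVC against 191 and 371 CPM in E6.5, a log2 ratio of −5.50 ± 0.56 (SE) with an edgeR adjusted p of 0.014. Hist1h1b had 8.00 and 10.8 CPM in IVC against 123 and 217 CPM in E6.5, a log2 ratio of −3.89 ± 0.50 with an edgeR adjusted p of 0.022. Hist1h2bj had 26.6 and 14.7 CPM in IVC against 98.0 and 142 CPM in E6.5, a log2 ratio of −2.25 ± 0.54 with an edgeR adjusted p of 0.045. The groups did not overlap for any of these genes. Hist1h2bc had 33.2 and 75.7 CPM in IVC against 139 and 224 CPM in E6.5, with an edgeR adjusted p of 0.12, and Hist1h4c had 12.9 and 12.3 CPM in IVC against 17.5 and 55.1 CPM in E6.5, with an edgeR adjusted p of 0.39. Hist1h4i had 21.3 and 57.7 CPM in IVC against 38.6 and 38.5 CPM in E6.5. The germline gene Hist1h2aa was not tested, at 0 and 0 CPM in IVC and 0.169 and 2.70 CPM in E6.5.

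**Figure D5:**
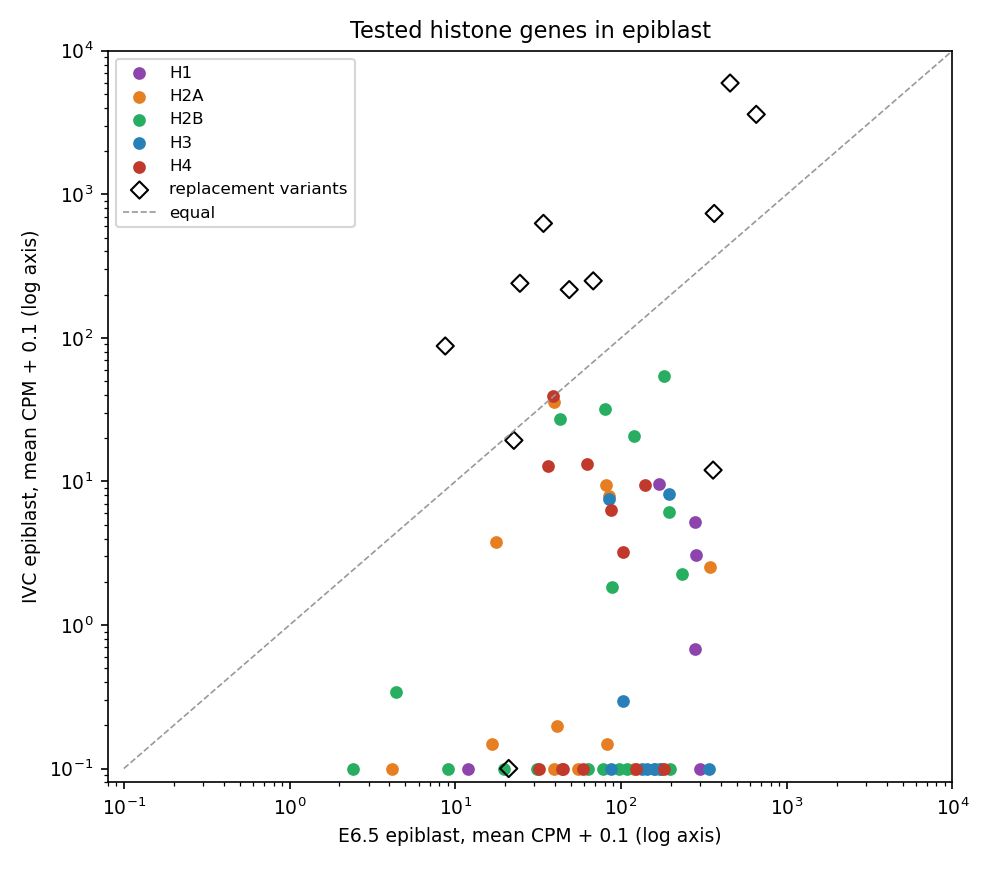
Mean CPM + 0.1 of each tested histone gene in E6.5 (x axis, log) and IVC epiblast (y axis, log), coloured by type, with replacement variants as diamonds and the dashed line at equal levels. The row of points along the bottom holds the members with no IVC count, and most replacement variants lie above the line.

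Most replacement variants went the other way. Of 11 tested, 8 were higher in IVC and 2 lower in the same edgeR test, where 12% of all genes were higher and 23.5% lower. H2afz had 5755 and 6159 CPM in IVC against 435 and 475 CPM in E6.5, a log2 ratio of 3.98 ± 0.10 with an edgeR adjusted p of 0.0038. H3f3b had 3926 and 3285 CPM in IVC against 672 and 637 CPM in E6.5, a log2 ratio of 2.73 ± 0.16 with an edgeR adjusted p of 0.0049. The 2 lower were H1fx, with no IVC count, and H2afx, a variant phosphorylated at DNA breaks, which had 3.37 and 20.4 CPM in IVC against 262 and 456 CPM in E6.5 and an edgeR adjusted p of 0.041. H2afx is known to give both polyadenylated and stem-loop mRNA. Other RNA without a poly(A) tail was also lower in IVC. The 54 tested genes of that list included 27 lower and none higher, Rn45s took 0.101 and 0.121% of counts in IVC against 26.2 and 23.3% in E6.5, and the list without Rn45s summed to 266 to 275 CPM in IVC against 552 to 814 CPM in E6.5. Leaving these genes out of the table left 41 histone members lower. The part of RNA capture in the histone difference was not tested, and RNA capture and embryo source cannot be told apart in this design.

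Calls among the genes that make histone mRNA went both ways in epiblast, and nothing particular to that list was read from them. Counts of called genes here stand beside 12% of all genes higher and 23.5% lower. Of 25 tested, 5 were higher in IVC (Slbp, Snrpd3, Snrpe, Snrpg and Lsm1) and 4 lower (Zfp473, Cstf2, Ncbp1 and Upf1). Slbp had 348 and 694 CPM in IVC against 185 and 109 CPM in E6.5, a log2 ratio of 2.08 ± 0.50 with an edgeR adjusted p of 0.046. Zfp473, a component of the histone pre-mRNA cleavage complex, had 0.0964 and 0 CPM in IVC against 14.9 and 9.40 CPM in E6.5. Of 19 S phase genes, Tyms was higher and 9 were lower, among them Mcm7, a subunit of the replicative helicase, with 61.7 and 61.4 CPM in IVC against 504 and 572 CPM in E6.5 and an edgeR adjusted p of 0.0058. The epiblast markers Pou5f1, Nanog, Sox2, Fgf5 and Otx2 did not pass, and Tdgf1 was higher in IVC, with the 6 markers summing to 1119 to 1389 CPM in IVC against 984 to 1121 CPM in E6.5. Of 5 visceral endoderm markers, Afp, Ttr and Apoa1 were higher in IVC, and the 5 summed to 406 to 479 CPM in IVC against 26.8 to 33.1 CPM in E6.5. The 4 extraembryonic ectoderm markers summed to 0.879 to 62.0 CPM in IVC, with Cdx2 and Bmp4 at 0, against 165 to 173 CPM in E6.5, and neither of the 2 tested passed. Their part in the histone difference was not tested.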

How the data were processed

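Read counts per gene were deposited by the authors for single MII oocytes and single 2-cell cells (total, maternal and paternal tables) and for epiblast. The submitters' processing notes name STAR 2.6.0a, featureCounts 2.0.1 and HTSeq 0.10.0 and build mm9, without roles or which counter made which table. The library kit is not given in the sources used here, and 155 of 209 samples were not analysed here. CPM were computed from the counts over gene rows without the 92 ERCC rows. The epiblast tables were joined on 24446 symbols, and 4 rows sharing a name were left out. Epiblast groups were compared with edgeR 4.0.16 (TMM, filterByExpr, quasi-likelihood test, Benjamini-Hochberg adjusted p under 0.05), tested on simulated data. DESeq2 1.42.0 was an alternative. Single-cell groups were compared as pools without a test, and intervals and floors of 3 counts cover counting error only. No 2 libraries had the same counts.

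The members and gene lists were chosen with earlier results of these data known. Genes named were the 15 members with the highest mean of the 4 pools, the germline and linker members and, per comparison, up to 5 per direction by size with 20 CPM or more; for epiblast, up to 10 per direction without overlap. RefSeq promoters on GRCm38.p6 were searched in the 250 bases before the gene start. Python 3.11.15 and R 4.3.3 were used. Replicate numbers of epiblast libraries did not pair them.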

Additional observations from a re-analysis of the deposited data

Results flagged for a closer look

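Among 51 groups of 4 to 10 libraries examined, 5 had a single library far from the others, and chance flags about 1 in 20. Hist1h2ba was at 7.67 CPM in WT 2-cell replicate 8, with the next WT 2-cell library at 3.63 CPM. Hist1h1d was at 2.73 CPM in KO 2-cell replicate 4, with the next at 0.740 CPM, and at 2.64 CPM in WT 2-cell replicate 4, with the next at 0.231 CPM. Hist1h1c was at 1.55 CPM in WT 2-cell replicate 5, with the next at 0.485 CPM. Hist1h1t, the testis linker histone gene, was at 0.725 CPM in KO 2-cell replicate 6, from 6 counts, and at 0 in the other KO 2-cell libraries. The low levels of Hist1h1c, Hist1h1d and Hist1h1t rest on few counts. The cause was not tested.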

How the results depend on the processing

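Counts of members 2-fold apart moved with the expression limit. KO against WT oocytes gave 1 member, 3 at 1 CPM, 15 with no limit and 0 in the spike-in, low-rRNA or remaining libraries alone (1 to 2 with single libraries left out). KO against WT 2-cell gave 2, with 1 under TMM scaling, 12 at 1 CPM, 26 with no limit and 1 to 3 with libraries left out. KO 2-cell against KO oocytes gave 4, with 14, 46, 1 against spike-in oocytes and 3 to 5. WT 2-cell against WT oocytes gave 3, with 15, 36, 1 and 2 to 3. Spike-in against low-rRNA oocytes gave 5 in KO, with 14, 27 and 5 to 6, and 5 in WT, with 15, 30 and 4 to 5; its summed log2 ratio in WT ran from 0.89 to 1.85 with libraries left out. The low-rRNA and remaining sets, the H2A sum without Hist1h2aa, the other settings of the spike-in comparison and the fit without non-polyadenylated RNA were chosen after seeing the data. The epiblast count of 41 was 26 with no filter, 47 with DESeq2 and 3 to 52 with libraries left out. Same-numbered epiblast libraries had a correlation of deviations of 0.00606, so the numbers were not taken as pairs; with the replicate block 24 members passed, 23 of them among the 41. No paired analysis was possible for oocytes and 2-cell cells because single cells with a shared number have no common source in the labels and no test was run. Direction turned for Hist1h3f in KO against WT oocytes (4.65 in low-rRNA, 0.63 in remaining libraries), for Hist1h1d in WT 2-cell against WT oocytes without WT 2-cell replicate 4 (−2.52, up to 1.88 with other libraries left out) and in KO 2-cell against KO oocytes without KO 2-cell replicate 4 (−1.17, up to 3.62), and against spike-in KO oocytes for H2A (0.56) and Hist4h4 (−0.043); the cause was not tested. The difference in paternal share stayed between −9.62 and −4.98 points. Of 214 single members or types by comparison, 105 kept their side in every alternative run. Members under 1 CPM rest on few counts.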
